A study of Homo sapiens with 4 samples.

Results

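The genes described here are 10 chromatin regulators that are often mutated in lymphoma, EZH2, KMT2D, KMT2C, CREBBP, EP300, ARID1A, SMARCA4, SETD2, TET2 and DNMT3A. They were chosen by name, and all 10 were found among the 41507 genes of the gene table. They hold 71 of the 67765 rows of the transcript table, of which 61 had a value above 0. RNA was measured in SU-DHL-5 and Toledo, established human cell lines derived from diffuse large B-cell lymphoma (DLBCL). For each line, 1 sample received DMSO, the vehicle, and 1 received JQ1 at 1 µM, a small molecule that displaces bromodomain and extra-terminal (BET) proteins from acetylated chromatin. The labels give 6 h of treatment and the study's legend a longer time. Each line stands for 1 tumour, and each of the 4 samples has 2 libraries in the tables (named 1 and 2 here), whose difference is not given in the sources used here. The mean of the 2 libraries was taken as the sample's value (n = 1 per group), so that replicates do not back any difference below and p-values are not given.

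Chromatin regulators set how tightly DNA is packed and which marks its histones carry. EZH2 is the methyltransferase of Polycomb repressive complex 2 and silences genes by methylating lysine 27 of histone H3, and in germinal centre B cells, from which many DLBCLs arise, it holds differentiation genes off. KMT2D and KMT2C methylate lysine 4 of histone H3 at enhancers, CREBBP and EP300 acetylate histones there, and BET proteins bind acetylated histones. ARID1A and SMARCA4 belong to the SWI/SNF complexes, which move nucleosomes, SETD2 methylates lysine 36 of histone H3 in transcribed genes, and DNMT3A and TET2 add methyl groups to DNA and oxidize them.

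Levels are in RPKM, that is, reads divided by feature length and by mapped reads. The length of a gene can exceed that of the transcript in use, which limits comparisons between genes. For DNMT3A the length was 10350 bases. Its transcript DNMT3A_7, with 3608 bases, was itself at 2.63 and 3.23 RPKM in the DMSO libraries of Toledo. A ratio is log2((a + 0.1)/(b + 0.1)) of the sample means in RPKM, which understates the change of genes near 0.1. The reads behind each value were recovered from the RPKM values (14617579 to 17679831 mapped reads per library, 93.3% to 94.3% of them on genes), and the 95% intervals given are exact (Clopper-Pearson) intervals of the ratio of these reads, without the 0.1, for counting error only. RPKM is a share of the RNA, so that fewer cells that express a gene and less RNA per cell cannot be told apart. All 8 B-cell markers listed were at 1 RPKM or more in every sample, while their summed level was 986 to 1110 RPKM with DMSO and 691 to 699 with JQ1 for SU-DHL-5, and 971 to 1030 against 650 to 671 for Toledo. The 5 T-cell markers were all below 1 RPKM, with sums of 1.00 to 1.24 with DMSO and 0.0452 to 0.120 with JQ1 for SU-DHL-5, and 0.0154 to 0.154 against 0 for Toledo. The sums of 5 myeloid markers were 1.32 to 1.35 RPKM with DMSO and 0.221 to 0.377 with JQ1 in SU-DHL-5, and at most 0.298 in Toledo. Those of 5 stromal and epithelial markers were 5.14 to 5.72 against 0.616 to 0.773 for SU-DHL-5, and 2.29 to 2.72 against 0.251 to 0.397 for Toledo, with EPCAM and KRT8 at 0 throughout. The part of these markers in the results below was not tested. HEXIM1, which BET inhibitors are known to induce, was higher with JQ1 (log2 ratio of 2.43 for SU-DHL-5 and 2.57 for Toledo), and MYC had ratios of -0.29 and 0.03.

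With DMSO, SMARCA4 and EZH2 were the most abundant of the 10 genes in both lines, and the other 8 stayed below 10 RPKM. In SU-DHL-5 the order of the means was SMARCA4 (42.5 RPKM), EZH2 (33.9), SETD2 (7.34), EP300 (4.37), ARID1A (4.07), CREBBP (1.71), KMT2C (1.16), KMT2D (0.955), TET2 (0.527) and DNMT3A (0.0857). The libraries of EP300 overlapped with those of ARID1A in this order, and those of KMT2C with those of KMT2D. For Toledo the order was EZH2 (50.9), SMARCA4 (35.9), ARID1A (8.77), SETD2 (5.56), CREBBP (4.51), EP300 (3.70), KMT2D (2.10), KMT2C (1.89), DNMT3A (1.40) and TET2 (1.20). Here SETD2 and CREBBP, CREBBP and EP300, and KMT2D and KMT2C could not be ordered, since their libraries overlapped.

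**Figure D1:**
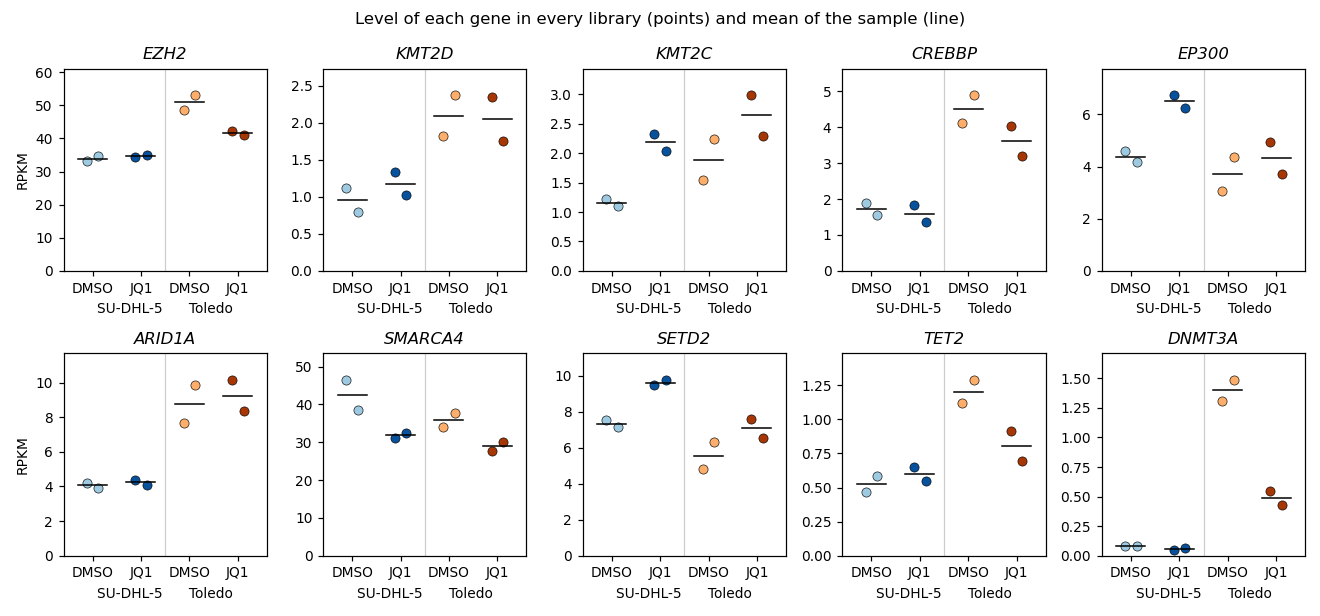
RPKM (vertical axis, from 0, with its own scale in each panel) of the 10 genes in each library (points) and the mean of the 2 libraries (line) for DMSO and JQ1 in SU-DHL-5 (blue) and Toledo (orange). KMT2C, EP300 and SETD2 were higher with JQ1 in both libraries of SU-DHL-5, and DNMT3A was low in SU-DHL-5 (at most 0.0861 RPKM) and lower with JQ1 in Toledo.

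The first question was whether JQ1 moved these genes in either line. A gene was called higher or lower where both libraries of 1 sample lay on 1 side of both libraries of the other and the ratio of the means, with 0.1 added to each, was at least 1.5-fold, among genes with a mean of 1 RPKM or more over the libraries compared. In SU-DHL-5, 8 of the 10 genes reached that level, all but TET2 and DNMT3A. Each JQ1 library was above each DMSO library for 3 of the 8 (KMT2C, EP300 and SETD2), as for 42.3% of the 9094 genes tested, and below for 1 (SMARCA4), as for 38% of all genes. KMT2C alone passed the fold as well (1 of 8, against 8.72% of all genes higher), and none of the 8 was called lower (12.1% of all genes). In Toledo, 9 of the 10 genes reached 1 RPKM, all but DNMT3A. The JQ1 libraries lay above for 2 of the 9 (KMT2C and SETD2), against 29.7% of 9380 genes, and below for 4 (EZH2, CREBBP, SMARCA4 and TET2), against 42.9%. None of the 9 was called higher (6.68% of all genes) or lower (15.8%), while DNMT3A, under the filter, met the rule for lower. The calls in Toledo depended on the library, as library 1 alone put KMT2C, EP300 and SETD2 past 1.5-fold higher, and library 2 alone put CREBBP and TET2 past 1.5-fold lower. The median log2 ratio was 0.17 over the 8 genes in SU-DHL-5, beside 0.02 over all genes tested, and -0.03 over the 9 in Toledo, beside -0.06. Length centring gave medians of 0.014 for SU-DHL-5 and -0.15 for Toledo. Without centring, the Toledo median was 0.35 from library 1 alone and -0.32 from library 2 alone. Over all 10 genes, the uncentred medians from the sample means were 0.11 for SU-DHL-5 and -0.16 for Toledo. The counts of genes on 1 side were thus near or below the background in each line.

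**Figure D2:**
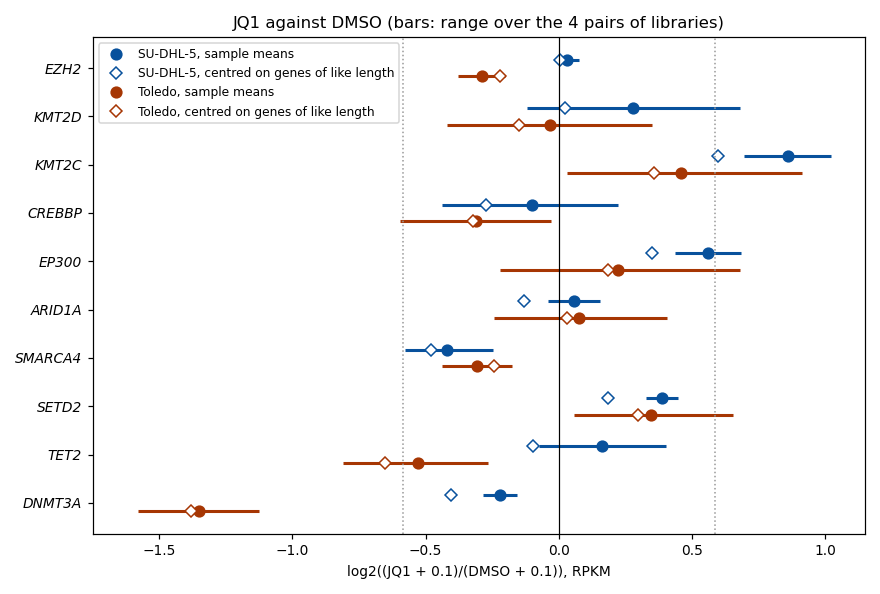
The log2 ratio of JQ1 to DMSO (horizontal axis, RPKM with 0.1 added) for each gene in SU-DHL-5 (blue) and Toledo (orange). Filled points are ratios of the sample means, bars the range over the 4 pairs of a JQ1 and a DMSO library, open diamonds the ratio centred on the 200 genes nearest in length (defined below), and dotted lines a 1.5-fold difference. DNMT3A in Toledo (-1.35) and KMT2C in SU-DHL-5 (0.86) lie beyond the dotted lines, and SMARCA4 is left of 0 and SETD2 right of 0 in both lines.

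In Toledo the 2 libraries of a sample differed with length. Length here is the feature length used for RPKM, not the span of the gene on the chromosome. This touches most of these genes, as 8 of the 10 have 8000 bases or more (all but EZH2 with 3282 and SMARCA4 with 6147). In Toledo with DMSO, all 10 genes were higher in library 2 than in library 1 (median log2 ratio of 0.31), and the 633 tested genes of 8000 bases or more had a median of 0.33, whereas genes of 1500 to 3000 bases were at 0.01. In Toledo with JQ1, 1 of the 10, SMARCA4, was higher in library 2 (median of -0.30, and of -0.15 over 625 long genes). The members' medians in SU-DHL-5 were -0.12 with DMSO and -0.11 with JQ1, with long genes at -0.04 and 0.00. Genes of 1500 to 3000 bases were at -0.02 and 0.02 there, so that long and short genes hardly differed in this line. The ratio of JQ1 to DMSO varied with length as well. Its median was 0.22 for long genes and -0.07 for genes of 1500 to 3000 bases for SU-DHL-5, and 0.08 against -0.12 for Toledo. Ratios are therefore also given centred. For each gene, the deviation of a library's log2 level from the mean over the 8 libraries was taken. The median deviation of the 200 genes nearest in length was subtracted from each library's log2 level. The centred ratio is the difference between the sample means of these levels. The part of length in the results was not tested further.

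**Figure D3:**
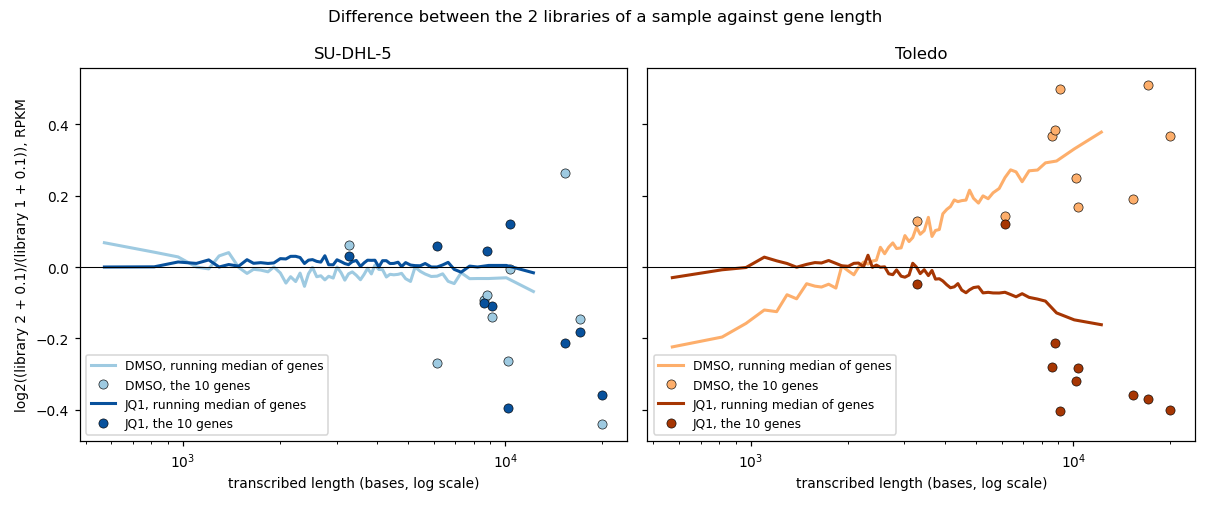
The log2 ratio of library 2 to library 1 of a sample (vertical axis, RPKM with 0.1 added) against the feature length used for RPKM in bases (log scale, labelled transcribed length), with DMSO in the light and JQ1 in the dark colour. Lines are running medians over genes and points are the 10 genes. In Toledo the DMSO line climbs with length and the JQ1 line declines, and the 10 genes follow, with all 10 above 0 with DMSO and 9 below 0 with JQ1.

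EZH2 (chr7:148807372-148884349, GRCh38, as for all positions) was at 33.2 and 34.6 RPKM in the DMSO libraries of SU-DHL-5 and at 34.2 and 35.0 in the JQ1 libraries. The groups overlapped, with a log2 ratio of 0.03 and an interval of -0.04 to 0.10 on 3532 and 3637 reads, which bounds the difference by counting error alone. The Toledo libraries were at 48.6 and 53.1 RPKM with DMSO and at 42.2 and 40.9 with JQ1. Both JQ1 libraries were lower, with a ratio of -0.29 (-0.35 to -0.23) and -0.22 when centred on length. EZH2 thus lay higher in Toledo than in SU-DHL-5 with DMSO (log2 ratio of 0.58), and missed the call because of the 0.1 added, since the plain means differed by 50.1%. Of its 13 listed transcripts, those from the outermost start site held 75.5% of the reads in SU-DHL-5 with DMSO, 78.4% with JQ1, 82.5% in Toledo with DMSO and 85.1% with JQ1. Transcripts that start 33829 bases further in held 23.3%, 21.6%, 16.9% and 14.7%. The share of a start site differed by up to 7.70 percentage points between libraries of 1 sample, so that the difference between treatments lay within the spread of libraries.

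The 10 listed partners of EZH2 in Polycomb repressive complex 2 were all at 1 RPKM or more. In SU-DHL-5, 2 were above and 4 below in both JQ1 libraries, and in Toledo 3 and 6. These counts, and those of the lists that follow, are to be read beside the shares of all genes given above. These were 42.3% above and 38% below for SU-DHL-5, and 29.7% above and 42.9% below for Toledo. Up to 4 partners per list were named for libraries that did not overlap, on the same side in both lines. That their libraries did not overlap was thus set by the choice and is not a result. PHF19, an accessory subunit that helps bring the complex to chromatin, was at 38.3 and 32.8 RPKM with DMSO and 14.2 and 15.0 with JQ1 in SU-DHL-5. Its Toledo libraries were at 14.2 and 14.0 RPKM with DMSO and 3.77 and 3.63 with JQ1 (log2 ratios of -1.28 and -1.91). PHF19 was therefore lower in both libraries of both lines. JARID2, another accessory subunit, was higher with JQ1 in both (0.69 and 0.62). EZH1, the paralog of EZH2, had ratios of 0.26 and 0.25, and RBBP7, a histone-binding subunit, of -0.11 and -0.27.

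KMT2D (chr12:49018975-49060147), with a feature length of 20000 bases, was at 1.11 and 0.795 RPKM with DMSO and 1.34 and 1.02 with JQ1 in SU-DHL-5. Toledo had 1.82 and 2.37 RPKM with DMSO and 2.35 and 1.75 with JQ1. The libraries overlapped in both lines (log2 ratios of 0.28, interval of 0.17 to 0.48, and -0.03, interval of -0.13 to 0.09). The ranges over pairs of libraries, -0.12 to 0.68 and -0.42 to 0.35, were wider than these counting intervals, so the spread between libraries limits KMT2D more than depth. Centred on length, the ratio was 0.02 for SU-DHL-5 and -0.15 for Toledo, where both JQ1 libraries then lay below.

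KMT2C (chr7:152134925-152436005) had the only ratio of SU-DHL-5 past the fold. It was at 1.22 and 1.10 RPKM with DMSO and at 2.33 and 2.04 with JQ1 (log2 ratio of 0.86, 0.78 to 1.07, on 1167 and 646 reads). Toledo had 1.54 and 2.24 RPKM with DMSO and 2.99 and 2.29 with JQ1 (0.46, 0.38 to 0.61). All JQ1 libraries lay above the DMSO libraries of their line, but in Toledo the closest pair differed by 0.03 on the log2 scale. Centred on length, the ratios were 0.60 and 0.36, and both JQ1 libraries stayed above in each line. With a pseudocount of 1 RPKM the ratio in SU-DHL-5 was 0.56, which is no longer a call. KMT2C was also higher in Toledo than in SU-DHL-5 with DMSO (0.66). The genome holds near-identical copies of part of KMT2C, and how reads shared with them were counted is not given in the sources used here. All of its 9 listed transcripts start at 1 site, and the share of a transcript differed by up to 36.8 percentage points between libraries of a sample, so that no transcript could be singled out.

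The promoters of KMT2C and SETD2, the genes above in both JQ1 libraries of both lines, are shown for comparison, as the 250 bases before a RefSeq start site on the minus strand (GRCh38.p14, chr7:152436004-152436253 and chr3:47164114-47164363, read 5′ to 3′). Capitals mark GC boxes (GGGCGG or, on the other strand, CCGCCC, where neighbouring copies may overlap). The KMT2C stretch shares 2 bases with its annotated exon 1, and overlaps a transcript of the pseudogene FABP5P3 outside its exons. The RefSeq start of SETD2 lies 136 bases upstream of the start listed in the table, and its promoter overlaps no exon of the GENCODE annotation.
KMT2C promoter: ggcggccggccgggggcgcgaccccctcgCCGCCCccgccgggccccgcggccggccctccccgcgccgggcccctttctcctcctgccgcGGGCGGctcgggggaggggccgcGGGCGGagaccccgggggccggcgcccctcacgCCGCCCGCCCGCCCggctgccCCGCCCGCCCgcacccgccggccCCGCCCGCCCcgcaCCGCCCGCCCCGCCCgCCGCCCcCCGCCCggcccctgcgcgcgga
SETD2 promoter: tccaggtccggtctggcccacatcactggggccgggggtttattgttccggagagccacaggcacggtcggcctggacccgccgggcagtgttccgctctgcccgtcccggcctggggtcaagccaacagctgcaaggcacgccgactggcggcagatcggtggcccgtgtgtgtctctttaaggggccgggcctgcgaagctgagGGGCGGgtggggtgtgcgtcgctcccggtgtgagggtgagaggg
KMT2C had 15 GC boxes, 48 CG dinucleotides and 92.0% G or C, and SETD2 1 GC box, 21 CG and 69.6%. Over 35116 RefSeq promoters of this length, 42.6% held a GC box, and the medians were 11 CG and 58.0% G or C. Neither held a CCAAT box (CCAAT or ATTGG, in 32% of all), an E-box (CACGTG, in 6.34%) or a TATA box (TATAAA or TTTATA, in 10.7%).

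Of the 14 listed genes of the complexes that methylate lysine 4 of histone H3, 13 reached 1 RPKM in SU-DHL-5 and 14 in Toledo. In SU-DHL-5, 6 were above and 5 below in both JQ1 libraries, and in Toledo 5 and 6. RBBP5 and ASH2L, core subunits shared by all these complexes, had log2 ratios of 0.38 and 0.25 for SU-DHL-5, and of 0.41 and 0.38 for Toledo. The core did not share 1 direction, as WDR5 had -0.172 for SU-DHL-5 and -0.225 for Toledo, and DPY30 had 0.269 and 0.161. KDM6A, a demethylase of lysine 27 that belongs to the KMT2C and KMT2D complexes, had 0.32 and 0.22, and PAXIP1, found in the same complexes, -0.52 and -0.41. The libraries of RBBP5, ASH2L, KDM6A and PAXIP1 did not overlap between treatments in either line, which the rule for naming them required.

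CREBBP (chr16:3725054-3880120) was at 1.88 and 1.55 RPKM with DMSO and 1.82 and 1.36 with JQ1 in SU-DHL-5, which overlapped (log2 ratio of -0.10, -0.26 to 0.09). Its level in Toledo was 4.11 and 4.90 RPKM with DMSO and 4.03 and 3.21 with JQ1 (-0.31, -0.42 to -0.20). Both JQ1 libraries of Toledo were thus lower, the closest pair by 0.03 on the log2 scale, and the centred ratio was -0.32. CREBBP was higher in Toledo than in SU-DHL-5 with DMSO (log2 ratio of 1.35).

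EP300 (chr22:41092302-41180083), the paralog of CREBBP, was at 4.59 and 4.16 RPKM with DMSO and 6.75 and 6.25 with JQ1 in SU-DHL-5. Both JQ1 libraries were higher (log2 ratio of 0.56, 0.47 to 0.68, and 0.35 when centred), and the ratio fell just short of the 1.5-fold for a call. Its level in Toledo was 3.05 and 4.35 RPKM with DMSO and 4.95 and 3.71 with JQ1. Here the libraries overlapped, with a ratio of 0.22 (0.12 to 0.36) and a range over pairs of libraries of -0.22 to 0.68. CREBBP and EP300 thus had ratios of unlike sign in each line, with overlapping libraries for 1 of them each time, and whether their responses differed was not tested. Between the lines with DMSO, EP300 had a ratio of -0.24 with overlapping libraries, against 1.35 for CREBBP.

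All 10 other acetyltransferases and coactivators listed reached 1 RPKM. In both lines 5 were above in both JQ1 libraries, and 4 were below in SU-DHL-5 and 2 in Toledo. KAT2A and KAT5, catalytic subunits of the SAGA and TIP60 complexes, were lower with JQ1 and past the fold in both lines (KAT2A at log2 ratios of -0.90 and -1.19, KAT5 at -0.67 and -0.77). NCOA1, a nuclear receptor coactivator, was higher and past the fold (0.65 and 0.84), and KAT6A had ratios of 0.56 and 0.54.

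ARID1A (chr1:26696031-26782110), the DNA-binding subunit of the BAF form of SWI/SNF, was at 4.21 and 3.94 RPKM with DMSO and 4.39 and 4.09 with JQ1 in SU-DHL-5. The values in Toledo were 7.65 and 9.89 RPKM with DMSO and 10.2 and 8.34 with JQ1. The libraries overlapped in both lines (log2 ratios of 0.06, -0.06 to 0.18, and 0.08, 0.01 to 0.17). Centred on length, the ratio was -0.13 in SU-DHL-5, with both JQ1 libraries below, and 0.03 in Toledo. What separated ARID1A was the line, as it was higher in Toledo with DMSO (log2 ratio of 1.09). A long non-coding RNA gene, LOC101928728, overlaps its 5′ end, and had 126 reads in all libraries, equal to 1.70% of those of ARID1A; whether the counting used strand is not given in the sources used here.

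SMARCA4 (chr19:10960922-11062282), the ATPase of SWI/SNF, was at 46.5 and 38.5 RPKM with DMSO and 31.1 and 32.5 with JQ1 in SU-DHL-5. The values in Toledo were 34.1 and 37.7 RPKM with DMSO and 27.8 and 30.2 with JQ1. SMARCA4 was the only gene of the 10 at 1 RPKM or more whose JQ1 libraries were below the DMSO libraries in both lines. The log2 ratio was -0.42 (-0.46 to -0.37, on 6075 and 8512 reads) in SU-DHL-5 and -0.31 (-0.36 to -0.26) in Toledo, and -0.48 and -0.24 when centred. The 2 DMSO libraries of SU-DHL-5 themselves differed by -0.27, with an interval that excludes 0. With DMSO, SMARCA4 was lower in Toledo (-0.24), but the libraries overlapped once centred on length. Transcripts from a start site 23230 bases inside the gene held 43.6% of its reads in SU-DHL-5 with DMSO, 46.9% with JQ1, and 47.8% and 49.1% in Toledo. These shares differed by less than the 22.8 percentage points found between libraries of 1 sample.

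Of the 22 other SWI/SNF genes listed, 20 reached 1 RPKM in each line. In SU-DHL-5, 7 were above and 9 below in both JQ1 libraries, and in Toledo 2 were above and 11 below (all genes, 29.7% and 42.9%), with medians of -0.03 and -0.15 beside 0.02 and -0.06 over all genes. DPF1, a subunit best known from the neuronal form of the complex, had log2 ratios of -1.09 and -1.74, at low levels. It was at 2.39 and 1.76 RPKM with DMSO and 0.955 and 0.885 with JQ1 in SU-DHL-5. Its Toledo libraries were at 2.83 and 3.56 RPKM with DMSO and 0.77 and 1.0 with JQ1. The core subunits SMARCC2 (-0.53 and -0.78) and SMARCB1 (-0.46 and -0.40) were lower in both libraries of both lines, and SS18 was higher (0.37 and 0.30).

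SETD2 (chr3:47016408-47163977) was at 7.54 and 7.14 RPKM with DMSO and 9.48 and 9.77 with JQ1 in SU-DHL-5. In Toledo it was at 4.81 and 6.31 RPKM with DMSO and 7.63 and 6.57 with JQ1. Both JQ1 libraries lay above in each line, though short of the 1.5-fold for a call. The log2 ratio was 0.39 (0.31 to 0.48) in SU-DHL-5 and 0.35 (0.27 to 0.46) in Toledo, where the closest pair of libraries differed by 0.06. Centred on length, it was 0.19 and 0.30. SETD2 was lower in Toledo than in SU-DHL-5 with DMSO (-0.40). Among 9 listed genes of lysine 36 methylation and its removal, all at 1 RPKM or more, 4 were above and 3 below in SU-DHL-5, and 1 above and 5 below in Toledo. NSD1, a methyltransferase that places up to 2 methyl groups on lysine 36, had ratios of -0.49 and -0.75, and its relative WHSC1 (NSD2) of -0.14 and -0.44. KDM4A, a demethylase, had 0.53 and 0.15, and SMYD2 -0.28 and -0.29.

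TET2 (chr4:105145875-105279803) was at 0.470 and 0.584 RPKM with DMSO and 0.653 and 0.549 with JQ1 in SU-DHL-5, where the libraries overlapped (log2 ratio of 0.16, -0.06 to 0.44, on 288 and 265 reads). In Toledo it was at 1.12 and 1.29 RPKM with DMSO and 0.915 and 0.692 with JQ1. Both JQ1 libraries of Toledo were lower (-0.53, -0.76 to -0.40), short of 1.5-fold, and the centred ratio of -0.65 was past it. TET2 was higher in Toledo than in SU-DHL-5 with DMSO (log2 ratio of 1.06). Its transcripts gave no stable shares, as they differed by up to 65.7 percentage points between libraries of a sample.

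DNMT3A (chr2:25228552-25342590) had the widest range of the 10 genes. It was at 0.0861 and 0.0854 RPKM with DMSO and 0.0527 and 0.0661 with JQ1 in SU-DHL-5, which is 29 and 19 reads. In Toledo it was at 1.31 and 1.49 RPKM with DMSO and 0.547 and 0.431 with JQ1, or 490 and 164 reads. The gene thus rested on few reads in SU-DHL-5, where the interval of the read ratio, -1.46 to 0.35, includes 0 although the libraries did not overlap. In Toledo the log2 ratio was -1.35, or -1.51 on reads (-1.78 to -1.26), and -1.38 when centred, the largest of the 10 genes in either line. The centring used genes of 9481 to 11478 bases. DNMT3A_7, with 72.9% of the transcript reads in Toledo with DMSO, has 3608 bases, so the centred value may not match its length. With DMSO, DNMT3A was higher in Toledo by 3.01 on the log2 scale, or 4.03 on reads (3.48 to 4.62).

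DNMT3A is transcribed from several start sites, and a shorter protein, DNMT3A2, which lacks the N-terminal end, is known to be made from a promoter inside the gene. Transcripts that start at base 25252315, 90275 bases inside the outermost start at 25342590, carried 197 and 211 reads in the DMSO libraries of Toledo and 51 and 59 in its JQ1 libraries. The outermost start carried 8 and 9 reads with DMSO and 11 and 13 with JQ1. In SU-DHL-5 the inner start had 6 and 0 reads with DMSO and 3 and 0 with JQ1, against 8 and 4, and 3 and 3, at the outermost start. The inner start held 82.1% and 84.4% of the transcript reads in the DMSO libraries of Toledo and 55.4% and 81.9% in its JQ1 libraries, so that the lower share with JQ1 was seen in library 1 and not in library 2. The share of a DNMT3A start site differed by up to 66.7 percentage points between libraries of a sample, in SU-DHL-5, where the gene had few reads. In Toledo the log2 ratio of JQ1 to DMSO in reads was -1.83 (-2.14 to -1.52) at the inner start, and -1.83 from either library alone. It was 0.56 (-0.39 to 1.55) at the outermost one. All reads not from the inner start gave -0.54 (-1.06 to -0.02), but this rested on library 2, with 39 reads with DMSO and 13 with JQ1 (-1.58, -2.61 to -0.64), while library 1 had 43 and 41 (0.05, -0.60 to 0.70). Between the lines with DMSO, the inner start differed by 6.03 (4.90 to 7.49) and the outermost by 0.45 (-0.70 to 1.65). The line difference was not confined to the inner start, as all other reads together gave 1.78 (1.10 to 2.52). A start 675 bases inside the outermost had 35 and 30 Toledo reads with DMSO, and 30 and 0 with JQ1. It differed by 2.65 (1.68 to 3.77) between the lines, and by -1.05 (-1.73 to -0.40) between treatments in Toledo. This grouping by start site was chosen after seeing the data, and the assignment of reads to transcripts that share exons is the authors'. In JQ1 library 2 of SU-DHL-5 the recovered transcript reads were 5 fewer than those of the gene. DNMT3A_3 and DNMT3A_8 had a value in that library alone. The search for the smallest length gave them 1 read each, which can be too few, so the shares of that library are unsure.

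**Figure D4:**
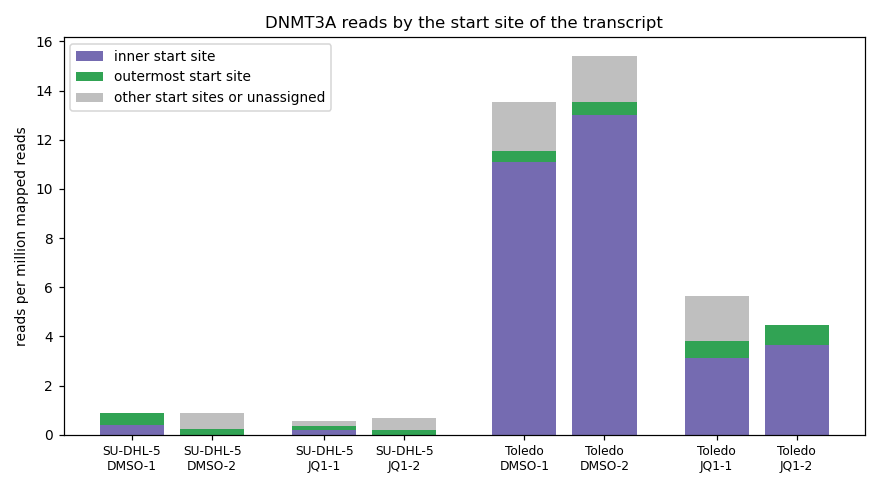
DNMT3A reads scaled to the mapped reads of the library (RPM, vertical axis, from 0) in each library, stacked by the start site of the transcript they were assigned to (purple for the inner, green for the outermost, grey for other sites or reads not recovered on a transcript). The inner start makes up most of the DNMT3A reads in Toledo, at 11.1 and 13.0 RPM with DMSO and 3.14 and 3.66 with JQ1, and is at most 0.382 in SU-DHL-5.

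The 250 bases before the outermost and the inner start site, on the minus strand, are shown (RefSeq, GRCh38.p14, chr2:25342591-25342840 and chr2:25252316-25252565). Reads were counted at both, and also at the start 675 bases inside the outermost one, whose promoter is not shown. In the GENCODE annotation the first lies outside the gene's exons and upstream of all its transcripts, and the second lies in an intron of the longer transcripts. Capitals mark GC boxes and, as CACGTG, an E-box, a sequence that MYC and related factors can bind.
DNMT3A outermost promoter: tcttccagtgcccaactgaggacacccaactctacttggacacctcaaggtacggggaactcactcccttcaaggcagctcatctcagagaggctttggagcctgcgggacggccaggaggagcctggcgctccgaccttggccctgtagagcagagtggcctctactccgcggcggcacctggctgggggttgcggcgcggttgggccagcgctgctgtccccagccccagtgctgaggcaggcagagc
DNMT3A inner promoter: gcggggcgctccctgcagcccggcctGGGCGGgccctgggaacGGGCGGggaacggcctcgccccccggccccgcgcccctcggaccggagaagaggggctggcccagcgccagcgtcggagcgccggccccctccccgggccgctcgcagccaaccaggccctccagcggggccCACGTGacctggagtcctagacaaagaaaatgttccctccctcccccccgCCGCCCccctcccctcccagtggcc
The inner promoter held 3 GC boxes, 1 E-box, 25 CG dinucleotides and 78.4% G or C. None of the 4 motifs was found in the outermost one, which had 12 CG and 65.6% G or C. The promoter not shown (chr2:25341926-25342175) held 2 GC boxes, 33 CG and 82.4% G or C, and so was not like the outermost one. A match is a description of the letters and does not show that a factor binds there.

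Of 12 other genes of DNA methylation and its removal, 9 reached 1 RPKM in SU-DHL-5 and 10 in Toledo. In SU-DHL-5, 4 were above and 4 below in both JQ1 libraries, and in Toledo 3 and 6. UHRF1, which brings the maintenance methyltransferase to replicated DNA, was at 40.6 and 37.4 RPKM with DMSO and 31.5 and 31.5 with JQ1 in SU-DHL-5, and at 88.3 and 108 and then 44.6 and 48.3 in Toledo (log2 ratios of -0.31 and -1.08). Its paralog UHRF2 was higher with JQ1 in both lines (0.45 and 0.36). IDH2, the mitochondrial isocitrate dehydrogenase that supplies the cofactor of TET enzymes, had ratios of -0.99 and -0.39, and the cytosolic IDH1 of 0.36 and 0.57. Among 10 enzymes that remove histone marks, 9 reached 1 RPKM in SU-DHL-5 and 10 in Toledo. Of these, 6 were above and 3 below in SU-DHL-5, and 5 above and 4 below in Toledo, with SIRT1 at 0.77 and 0.75, HDAC3 at 0.38 and 0.39, KDM5A at 0.40 and 0.26 and HDAC1 at -0.47 and -0.20.

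Of the 87 partners of all lists together, the 80 at 1 RPKM or more in SU-DHL-5 had a median log2 ratio of 0.01 and the 83 in Toledo of -0.09, beside 0.02 and -0.06 over all genes. Of the 79 at 1 RPKM or more in both lines, 20 were above and 25 below in both JQ1 libraries of both lines, and 3 and 4 of these were also past 1.5-fold. The 10 genes themselves had 2 above (KMT2C and SETD2) and 1 below (SMARCA4) in both lines among the 8 at 1 RPKM or more, with DNMT3A also below in both under that level. Over all 8495 genes at 1 RPKM or more in both lines, 24.4% were above and 28.9% below in both, and 3.65% and 7.39% were also past 1.5-fold, so that the shares of the partners and of the 10 genes lay near or below the background.

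**Figure D5:**
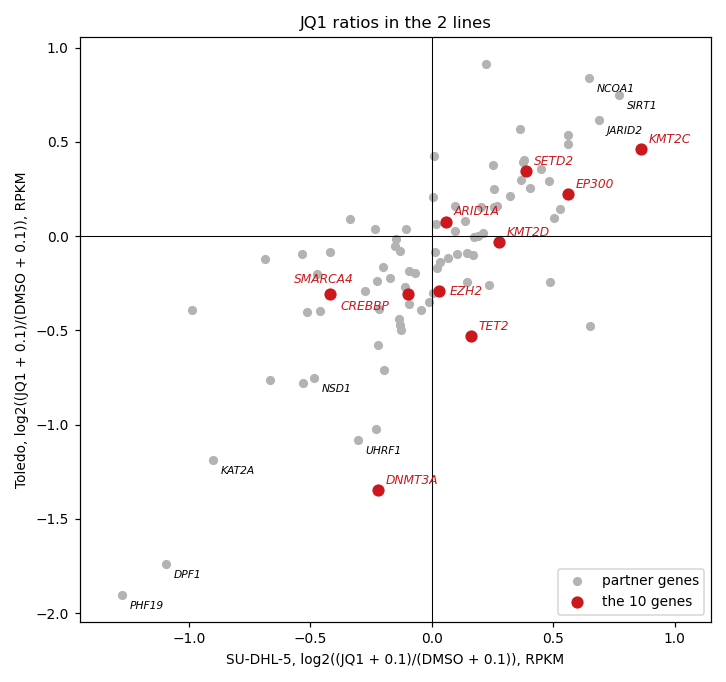
The log2 ratio of JQ1 to DMSO in SU-DHL-5 (horizontal axis) against that in Toledo (vertical axis), in RPKM with 0.1 added, for the 10 genes (red) and for the 79 partner genes at 1 RPKM or more in both lines (grey). PHF19 and DPF1 lie farthest to the lower left, KMT2C, SETD2 and EP300 are the red points farthest to the upper right, and DNMT3A and TET2 are the red points farthest below 0 in Toledo.

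The second comparison was between the lines with DMSO. Of the 8 genes at 1 RPKM or more, 5 were higher in both Toledo libraries than in both SU-DHL-5 libraries (42.2% of 9630 genes), and 2, SETD2 and SMARCA4, were lower (42.3%). CREBBP, ARID1A, KMT2D and KMT2C were called higher (4 of 8, against 25.5% of all genes), and none was called lower (23.7%). KMT2D passed the filter only through Toledo (2.10 RPKM), as it was at 0.955 RPKM in SU-DHL-5. TET2 and DNMT3A, under the filter, also met the rule for higher. The median log2 ratio was 0.62 over the 8 genes and 0.86 over all 10, beside -0.01 over all genes. Genes of 8000 bases or more had a median of 0.10, so that length moved with this comparison too. Centred on length, the ratios were 1.18 for CREBBP, 1.02 for ARID1A, 1.01 for KMT2D and 0.59 for KMT2C, all with libraries that did not overlap. The call of KMT2C was lost from library 1 alone (0.31) and with a pseudocount of 1 RPKM (0.42), and EZH2 was called with a pseudocount of 0.01 RPKM (0.59) or after scaling to the median ratio (0.60).

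The JQ1 ratio of Toledo minus that of SU-DHL-5 was -1.13 for DNMT3A, -0.69 for TET2, -0.40 for KMT2C, -0.34 for EP300, -0.32 for EZH2, -0.31 for KMT2D and -0.21 for CREBBP. It was 0.11 for SMARCA4, -0.04 for SETD2 and 0.02 for ARID1A. With 1 sample per group, whether the lines responded differently was not tested.

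Genes whose log2 levels followed those of KMT2C and DNMT3A most closely over the 8 libraries were named as a description, among 9521 genes of at least 1 RPKM. The libraries share lines, treatments and the dependence on length. For KMT2C these were PRKAA1 (Pearson's r of 0.993), a catalytic subunit of AMP-activated kinase, then COG5 (0.991), LTN1 (0.988), CHPF2 (0.983) and LSM14B (0.982). For DNMT3A they were MARCH9 (0.998), LAIR1, FAIM3, RNF145 and CSF2RB (0.997 each). LAIR1, an inhibitory receptor of leukocytes, was at 4.06 and 4.08 RPKM with DMSO and 1.07 and 0.718 with JQ1 in Toledo, and at most 0.0379 in SU-DHL-5. CSF2RB, the shared receptor chain of interleukin 3, interleukin 5 and GM-CSF, was at 5.02 and 6.04 RPKM and then 1.14 and 1.05 in Toledo, and at most 0.0259 in SU-DHL-5.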

How the data were processed

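RNA of 4 samples (2 DLBCL lines, DMSO or JQ1) was sequenced by the authors from stranded mRNA libraries. For 2 libraries per sample, the deposited values are RPKM of genes and of transcripts, which the authors scaled to feature length and mapped reads. The submitters' processing notes name CASAVA 2.0 and GRCh38. The aligner, the annotation and the treatment of shared reads are not given in the sources used here.

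Columns were matched to samples by the labels. The mapped reads of each library were found as the total that made single-exon genes come out as whole reads, and the length of a feature as the smallest from 100 to 40000 bases at which its 8 values were whole reads. A length was found for 14942 of the 14944 genes above 0 and for 44036 of the 44041 transcripts above 0. Low-read lengths were corrected where transcripts then summed to their gene, which held in all libraries for 9 of the 10 genes. No count model was fitted, since there was 1 sample per group. The recovery and the calls were tested on simulated data. Transcripts were grouped where their first bases lay within 100 bases of each other. The members, the lists of partners and markers and the tests were chosen with earlier results of these data known. All 10 members were named, with transcripts only by start site or by the gap of their shares between libraries. Up to 4 partners per list were named, those on the same side in both lines in all libraries, by the smaller absolute ratio. WDR5 and DPY30 were given outside this rule. For the member whose smaller JQ1 ratio of the 2 lines was largest (KMT2C) and the one with the largest difference between the lines (DNMT3A), 5 genes with the highest correlation of log2(RPKM + 0.1) were named. Alternatives changed the pseudocount, filter, fold, scaling, length centring, table and library. Promoters came from RefSeq (GRCh38.p14) and exons from GENCODE. The software was scipy 1.17.1, numpy 2.4.6, matplotlib 3.10.9 and pandas 2.3.3 under Python 3.11.15.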

Additional observations from a re-analysis of the deposited data

How the results depend on the processing

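With 1 sample per group, the results rest on the spread between 2 libraries. The members' median JQ1 ratio in SU-DHL-5 (0.17) was 0.10 with a pseudocount of 1 RPKM, 0.11 without the filter and 0.014 when centred on length. The 1 gene called higher in SU-DHL-5 became 0 with a pseudocount of 1 RPKM and 0 with a cutoff of 2-fold. In Toledo the 0 genes called lower became 1 without the filter (DNMT3A), 1 when centred on length (TET2) and 2 from library 2 alone (CREBBP and TET2), and the 0 called higher became 3 from library 1 alone (KMT2C, EP300 and SETD2). The members' median in Toledo (-0.03) was 0.35 from library 1 alone and -0.32 from library 2 alone. The 0 genes called lower in Toledo than in SU-DHL-5 with DMSO became 1 from library 1 alone (SETD2), and the 4 called higher ranged from 3 to 6. The cause of these moves was not tested. Of 78 such medians and counts under the alternatives, 68 stayed within the spread of the median or 1.5 times the count. The spread of a median (0.473 in Toledo) came from the same 2 libraries, so that 1 library alone could hardly exceed it. The Toledo medians of 0.35 and -0.32 are thus among the 68, which does not show that they were stable. Of 210 ratios of single genes, 66 moved by more than the spread between libraries and 8 took the other sign (ARID1A and TET2 in SU-DHL-5, KMT2D, EP300 and ARID1A in Toledo, and EP300 between the lines). Of 248 transcript shares in single libraries, 174 lay outside the counting interval of the sample's share. Leaving out the inner start, an alternative added after seeing the data, gave -0.54 for DNMT3A in Toledo (0.05 from library 1 alone and -1.58 from library 2 alone). No paired analysis was possible because each group holds 1 sample, and the numbers of its libraries name no shared source. Depth limits DNMT3A in SU-DHL-5, with 29 and 19 reads.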
